A study of Mus musculus with 6 samples.

Results

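Voltage-gated sodium channels are the membrane proteins that start and carry the action potential. The genes described here are the 7 rows of the deposited table whose symbol is Scn1a, Scn3a, Scn8a or Scn9a, which encode pore-forming alpha subunits, or Scn2b, Scn3b or Scn4b, which encode auxiliary beta subunits, out of 17607 genes in all. They were measured by RNA sequencing in the auditory nerve, the bundle of spiral ganglion neurons and glia that links the cochlear hair cells to the brainstem. The nerves came from CBA/CaJ mice, an inbred strain known for late-onset hearing loss, and the labels name no treatment or altered allele: 3 animals were young (2 months) and 3 were old (2.5 years). A library holds the nerve tissue of both cochleas of a single mouse, so each replicate is another animal and a mixture of cell types.

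An alpha subunit alone forms the sodium-selective pore, senses the voltage and inactivates soon after opening. Each beta subunit spans the membrane once, carries an immunoglobulin-like domain outside the cell, changes the gating and surface level of the alpha subunit, and acts in cell adhesion. In a myelinated axon the channels are packed at the axon initial segment and at the nodes of Ranvier, where ankyrin and spectrin hold them in place and where the impulse is renewed.

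Values are normalised read counts, that is read counts divided by 1 size factor per library. A difference is a log2 fold change, old minus young, of log2(value + 1), with its SE from limma. A gene was called when its two-sided p-value, adjusted over all 15882 genes tested by the Benjamini-Hochberg method, was under 0.05. Libraries held 34587979 to 40841478 reads. Of 17 spiral ganglion neuron markers 5 were lower in old nerves and none higher in limma (none at an unadjusted p under 0.05, in edgeR or in DESeq2), and their summed level ran from 546894 to 557124 in young nerves, while old 1 was at 359980, old 2 at 414744 and old 3 at 506917. Of all tested genes 18.7% were called lower and 15.9% higher in limma. The 8 Schwann cell markers, of which 3 were lower, summed to 437754 to 502230 in young and 446644 to 489500 in old nerves. The 7 macrophage markers were all higher, with sums of 3559 to 4565 and of 8410 to 12181, and their part in the other results was not tested. Hair cell markers (8 tested) and oligodendrocyte markers (7 tested) had no call in limma, edgeR or DESeq2, also at an unadjusted p under 0.05. Hair cell markers summed to 9877 to 14013 in young and 9957 to 13773 in old nerves. Oligodendrocyte markers summed to 11751 to 15405 in young and 9648 to 14006 in old nerves. Each oligodendrocyte marker was highest in young 1 among the young libraries, and its bearing on the other results was not tested. The 8 skeletal muscle markers summed to 59.0 to 82.7 in young and 48.6 to 131 in old libraries, none being at 0 in all 6. Among the 9 pairs of a young with an old library, young 1 and old 2 deviated most alike from their group means over all tested genes (Pearson's r = 0.396), so the calls are also given without these 2 libraries. In that fit none of the 17 neuron markers and 1 of the 8 Schwann cell markers were called lower, with 945 of all 15832 genes tested.

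All 7 genes had a lower mean in old nerves, and 3 of the 7 fell by the test: Scn8a, Scn2b and Scn4b. Across all tested genes 18.7% were called lower and 34.6% in either direction, and the median log2 fold change was -0.0008, against -0.56 for the 7. None of the 7 rose in limma, edgeR or DESeq2, and none had a positive value. With the replicate number as a block the same 3 were called lower, and 10.3% of all genes. In 5 of the 7 (Scn3a, Scn8a, Scn2b, Scn3b and Scn4b) every old library lay below every young one, which held for 26.3% of tested genes. In a whole nerve a lower level can come from fewer neurons or from less RNA per neuron, and these cannot be told apart here.

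**Figure D1:**
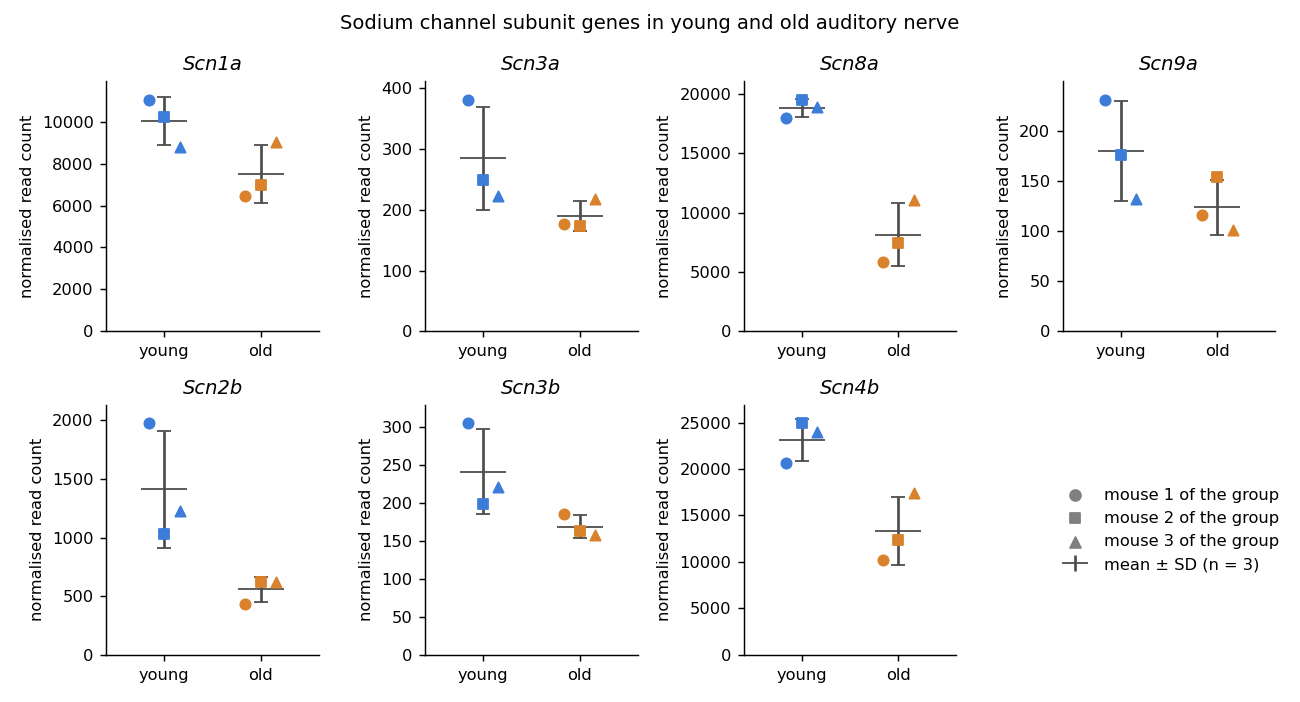
Normalised read counts (vertical axes, linear from 0) of the 7 sodium channel genes in the 3 young and the 3 old libraries; symbols are single mice and bars show the mean ± SD. Scn8a runs from 18008 to 19543 in young and from 5875 to 11101 in old nerves, whereas young and old points overlap in Scn1a and Scn9a.

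Scn8a encodes the alpha subunit that predominates at mature nodes of Ranvier and at the distal part of the axon initial segment. Its normalised counts were 18008, 19543 and 18890 in young 1, 2 and 3, against 5875, 7481 and 11101 in old 1, 2 and 3. The young libraries lay close together, and the old ones were all lower but spread out, with old 1 lowest and old 3 highest. The mean went from 18814 ± 770 to 8152 ± 2677 (SD, n = 3 each), a log2 fold change of -1.26 ± 0.21 (95% interval -1.75 to -0.76, limma adjusted p = 0.00720). At least 2-fold falls that pass the test were found in 2.34% of genes and, among the 7, in Scn8a and Scn2b. The Scn8a call was kept in each of the 6 fits with 1 library left out, where the value ran from -1.50 to -1.04. Without both young 1 and old 2 the value was -1.25 and the adjusted p 0.0507.

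Scn1a encodes the alpha subunit that in many central and peripheral neurons sits at the axon initial segment and nodes beside that of Scn8a, and that is known from inherited epilepsies. Its counts were 11059, 10237 and 8815 in young 1, 2 and 3, against 6472, 6971 and 9056 in old 1, 2 and 3. Old 3 lay above young 3, so the groups overlapped. The log2 fold change was -0.43 ± 0.14 (95% interval -0.76 to -0.10), with a limma adjusted p of 0.0532. The gene therefore missed the threshold narrowly, and its call depended on the setting. It passed in DESeq2 (adjusted p = 0.0217) and in the authors' deposited table (0.022). In limma it passed on genes with a mean of at least 100 (adjusted p = 0.04999) and without old 3 (0.00909). It did not pass in edgeR (adjusted p = 0.0649), nor in limma with TMM scaling (0.0562), upper-quartile scaling (0.0808) or the replicate block (0.133). Leaving out any other single library gave limma adjusted p-values of 0.0627 to 0.146. Without both young 1 and old 2 it was 0.273.

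Scn3a, whose alpha subunit is prominent in embryonic and injured neurons, stood much lower. It had 382, 250 and 224 normalised counts in young 1, 2 and 3, against 177, 174 and 218 in old 1, 2 and 3, with young 1 above all others. The log2 fold change of Scn3a was -0.56 ± 0.22 (95% interval -1.07 to -0.04, adjusted p = 0.0898), and without young 1 it was -0.33. Scn9a, whose alpha subunit is known from nociceptive and sympathetic neurons, had 231, 176 and 132 counts in young, against 116, 154 and 101 in old 1, 2 and 3. Its groups overlapped, and its log2 fold change of -0.52 ± 0.25 (95% interval -1.12 to 0.07, adjusted p = 0.149) was -0.32 without young 1. Gm13629, a gene of the table on the opposite strand that overlaps the span of Scn9a, had 738 to 1329 counts. The sources used here do not say whether reads of these genes were separated by strand.

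Among the 3 beta members Scn4b stood highest. Its protein is linked to the alpha subunit by a disulfide bond, and its tail inside the cell is known as a blocker of the open pore that allows a resurgent current in fast-firing neurons. Scn4b had 20621, 24921 and 23952 normalised counts in young 1, 2 and 3, against 10193, 12372 and 17406 in old 1, 2 and 3. The old libraries were all below the young ones and stood in the same order as in Scn8a. The mean went from 23165 ± 2255 to 13324 ± 3699 (SD, n = 3 each), a log2 fold change of -0.83 ± 0.19 (95% interval -1.28 to -0.38, limma adjusted p = 0.0165). This call was lost when young 2 (adjusted p = 0.0632), young 3 (adjusted p = 0.0572) or the pair of young 1 and old 2 (adjusted p = 0.0747) was left out. With 1 library left out the value stayed between -1.04 and -0.65.

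Scn2b, the other disulfide-linked beta subunit, raises the surface level of alpha subunits. Its counts were 1974, 1033 and 1223 in young 1, 2 and 3, against 436, 619 and 619 in old 1, 2 and 3. The groups were apart, with young 1 well above the other young libraries. From 1410 ± 498 to 558 ± 106 the log2 fold change of Scn2b was -1.30 ± 0.25 (95% interval -1.89 to -0.71, limma adjusted p = 0.0102). The value was -1.03 without young 1 (adjusted p = 0.0195) and -1.11 without both young 1 and old 2 (adjusted p = 0.0360), so Scn2b alone of the 3 kept its call there. Gm10684, on the opposite strand within the span of Scn2b, had 101 to 163 counts.

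Scn3b, a beta subunit held to the alpha subunit without a disulfide bond, had 306, 199 and 221 counts in young 1, 2 and 3, against 186, 163 and 159 in old 1, 2 and 3. All old libraries were lower, but old 1 was close to young 2. Its log2 fold change was -0.49 ± 0.19 (95% interval -0.93 to -0.05, adjusted p = 0.0814), and -0.31 without young 1.

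Some genes of each class lie near each other on the same chromosome. In mm10, Scn3a (65457118 to 65567492), Scn1a (66270782 to 66440837) and Scn9a (66480081 to 66634962) stand on the reverse strand of chromosome 2. Scn2b (45117876 to 45130070) and Scn4b (45139042 to 45154061) are neighbours on the forward strand of chromosome 9, with Scn3b further off on it (40269216 to 40291618). Scn8a stands apart on chromosome 15 (100870645 to 101045938, forward strand). The 3 members that fell thus include a pair of neighbours and the one that has no other member on its chromosome. The alpha genes are paralogs with similar coding sequence, and the sources used here do not say how reads that match several of them were counted.

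RefSeq (GRCm38.p6) start-site windows, from 250 bases before to 50 after a gene's start, were at hand for 5 of the 7 (Scn1a, Scn8a, Scn9a, Scn2b and Scn4b). Those of the 3 members that fell, and of Scn1a for comparison, are shown 5′ to 3′ with CpG dinucleotides in capitals, so that their number can be compared. The deposited start of Scn4b (45139042) lies downstream of its RefSeq start (45138624), where the window is placed. The Scn8a window is placed at the deposited start (100870645), while the RefSeq gene begins upstream of it (100869863), and another RefSeq window of Scn8a is not shown.
Scn8a, chr15:100870395-100870694, forward strand: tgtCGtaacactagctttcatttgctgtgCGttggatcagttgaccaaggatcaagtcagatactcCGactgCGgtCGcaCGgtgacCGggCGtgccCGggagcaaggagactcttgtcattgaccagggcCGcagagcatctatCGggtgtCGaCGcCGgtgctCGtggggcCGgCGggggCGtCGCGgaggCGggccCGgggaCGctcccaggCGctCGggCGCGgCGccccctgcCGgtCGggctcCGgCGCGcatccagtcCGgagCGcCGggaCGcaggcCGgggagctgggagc
Scn2b, chr9:45117626-45117925, forward strand: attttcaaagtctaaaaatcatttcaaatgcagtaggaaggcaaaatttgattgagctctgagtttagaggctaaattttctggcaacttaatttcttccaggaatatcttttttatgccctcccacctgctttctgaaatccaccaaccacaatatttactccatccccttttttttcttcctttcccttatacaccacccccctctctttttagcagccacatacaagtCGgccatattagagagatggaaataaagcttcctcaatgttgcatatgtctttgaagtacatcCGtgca
Scn4b, chr9:45138374-45138673, forward strand: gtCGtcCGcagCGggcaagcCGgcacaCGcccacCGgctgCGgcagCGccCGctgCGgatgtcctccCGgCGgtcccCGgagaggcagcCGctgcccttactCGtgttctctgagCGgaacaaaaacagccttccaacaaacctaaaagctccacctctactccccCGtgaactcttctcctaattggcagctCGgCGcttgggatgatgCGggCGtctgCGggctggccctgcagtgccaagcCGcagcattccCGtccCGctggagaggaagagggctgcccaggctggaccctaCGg
Scn1a, chr2:66440788-66441087, reverse strand: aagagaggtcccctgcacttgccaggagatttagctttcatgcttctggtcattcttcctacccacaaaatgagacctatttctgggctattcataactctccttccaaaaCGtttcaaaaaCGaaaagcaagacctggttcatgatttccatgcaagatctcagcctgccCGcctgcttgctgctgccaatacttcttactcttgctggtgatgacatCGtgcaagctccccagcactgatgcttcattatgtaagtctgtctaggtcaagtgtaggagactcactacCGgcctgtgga

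The Scn8a window held 38 CpG dinucleotides and that of Scn4b 26, against 2 in Scn2b and 5 in Scn1a, and the median over all 32851 windows of this length was 7. Both CpG-rich and CpG-poor windows are thus found among the members that fell. On both strands, none of the members' windows held GGGCGG (the Sp1 GC box, in 35.7% of all windows), TATAAA (the TATA box, 13.6%), TGACGTCA (the cAMP response element, 1.79%), or either of GGACAGC (6.56%) and TTCAGCACC (0.371%), which are parts of the element of the neuronal repressor REST. CCAAT, in 37.4% of all windows, was found in Scn1a and Scn4b. Rest itself was at 567 to 654 in young and 434 to 596 in old nerves (log2 fold change -0.32 ± 0.14, adjusted p = 0.111).

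Levels of different genes were compared per kb of the longest protein-coding transcript. In young nerves the order was Scn4b (4650 ± 453 normalised counts per kb), Scn8a (1645 ± 67.3), Scn1a (1197 ± 135), Scn2b (303 ± 107), Scn3b (58.3 ± 13.6), Scn3a (29.8 ± 8.87) and Scn9a (18.3 ± 5.05). Only the last neighbours, Scn3a and Scn9a, overlapped between libraries. In old nerves the order was the same except that Scn1a (894 ± 163) came before Scn8a (713 ± 234), and these overlapped. Over the 4 alpha genes together the level per kb was 2890 ± 130 in young and 1640 ± 398 in old nerves, and over the 3 beta genes 5011 ± 332 and 2835 ± 756, so that both classes stood at 0.567 and 0.566 of the young mean (exact permutation p = 0.1 for each, the smallest that 3 against 3 allows).

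**Figure D2:**
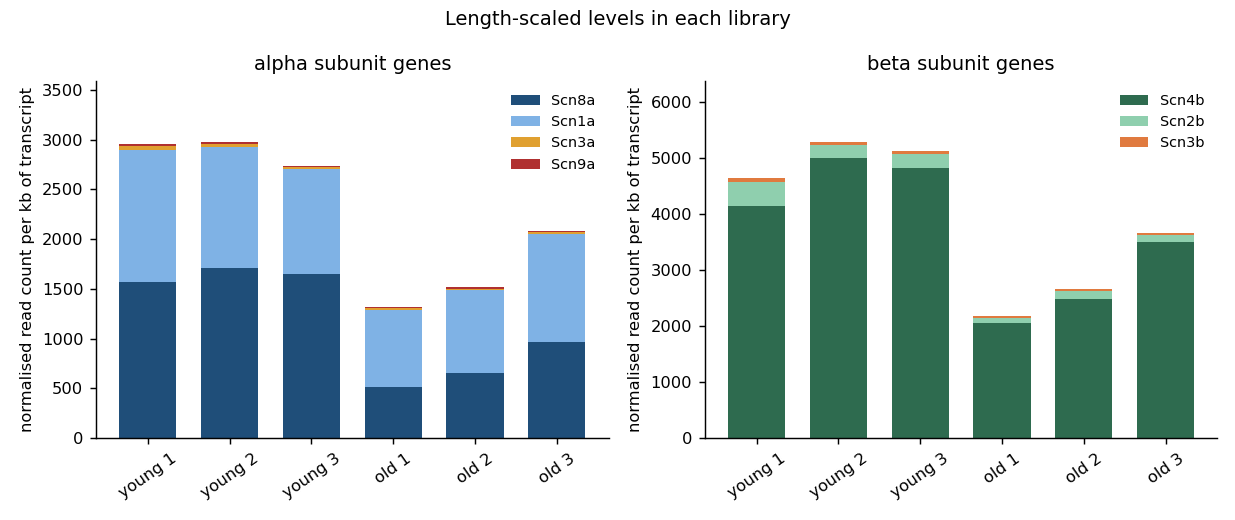
Normalised read counts per kb of transcript, stacked by gene, for the alpha genes (left) and the beta genes (right) in each of the 6 libraries. The Scn8a part is the larger one in each young library (1575 to 1709 per kb) and the smaller one beside Scn1a in each old library (514 to 971).

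In the alpha class the shares of Scn8a and Scn1a were apart between the groups, but no test of a share passed. Scn8a took 53.3%, 57.5% and 60.3% of the summed alpha level per kb in young 1, 2 and 3, against 39.0%, 43.1% and 46.6% in old 1, 2 and 3. Scn1a took 44.6%, 41.1% and 38.4% in the young and 58.7%, 54.7% and 51.8% in the old libraries. Neither share overlapped between the groups, and each difference (-14.1 and 13.7 percentage points) had an exact permutation p of 0.1, the smallest possible (0.35 adjusted over the 7 shares). These 2 genes make up nearly all of the sum, so a lower share of one is a higher share of the other. The 2 differences are therefore not separate results. How often shares of other genes are apart was not counted, so the differences are only a description. With the family genes Scn2a and Scn7a in the sum, the differences were -15.1 for Scn8a and 9.83 for Scn1a (exact permutation p = 0.1 for each). The level of Scn8a per kb was 1.19, 1.40 and 1.57 times that of Scn1a in young libraries, against 0.666, 0.787 and 0.899 times in old 1, 2 and 3. Scn3a took 0.853% to 1.40% and Scn9a 0.490% to 1.03% over the 6 libraries, with overlap between the groups. Among the beta genes Scn4b took 89.3% to 94.9% in young and 93.5% to 95.3% in old nerves, with overlap.

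Differences between the members' changes were tested for all 21 pairs of genes on the log2 ratio in each library. In 5 pairs the groups did not overlap, each with an exact permutation p of 0.1, and no pair passed after adjustment (smallest adjusted p = 0.42). Pairs share genes, and how often pairs of other genes are apart was not counted, so the 5 are only a description. Relative to Scn8a, Scn1a was higher in old nerves by 0.83 on the log2 scale (0.58 with length and GC trends removed). Relative to Scn2b, Scn1a was higher by 0.87 and Scn3a by 0.74. Scn2b was at -0.81 relative to Scn3b, and Scn8a at -0.43 relative to Scn4b. Scn8a and Scn2b, which had the lowest values, differed from each other by 0.04 (0.34 with the trends removed).

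The falls were next set against the neuron markers. When each library was centred on the mean log2 value of its 17 neuron markers, the median of all genes moved to 0.42 and 3.49% of genes were called lower. Scn8a (-0.83, adjusted p = 0.00445), Scn2b (-0.88, adjusted p = 0.0105) and Scn4b (-0.41, adjusted p = 0.0458) were still called lower on this scale. Scn1a (-0.01), Scn3a (-0.13), Scn9a (-0.10) and Scn3b (-0.07) came close to 0, with adjusted p-values from 0.644 to 0.966. Per 1000 normalised counts of the summed neuron markers, Scn8a had 32.9, 35.1 and 34.1 in young 1, 2 and 3, against 16.3, 18.0 and 21.9 in old 1, 2 and 3, so that the old libraries were at 0.551 of the young mean. In that sum Snap25, Calb2 and Nefh weigh most (young means of 99962, 99300 and 98074), and none of these was called. The neuron markers did not move as one: Rbfox3 (-1.27 ± 0.23), Slc17a7, the vesicular glutamate transporter of these neurons (-1.07 ± 0.24), and Nefm, a neurofilament chain (-1.05 ± 0.21), fell, while Tubb3 (-0.23), Calb2 (-0.02) and Pvalb (-0.0026) did not pass.

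**Figure D3:**
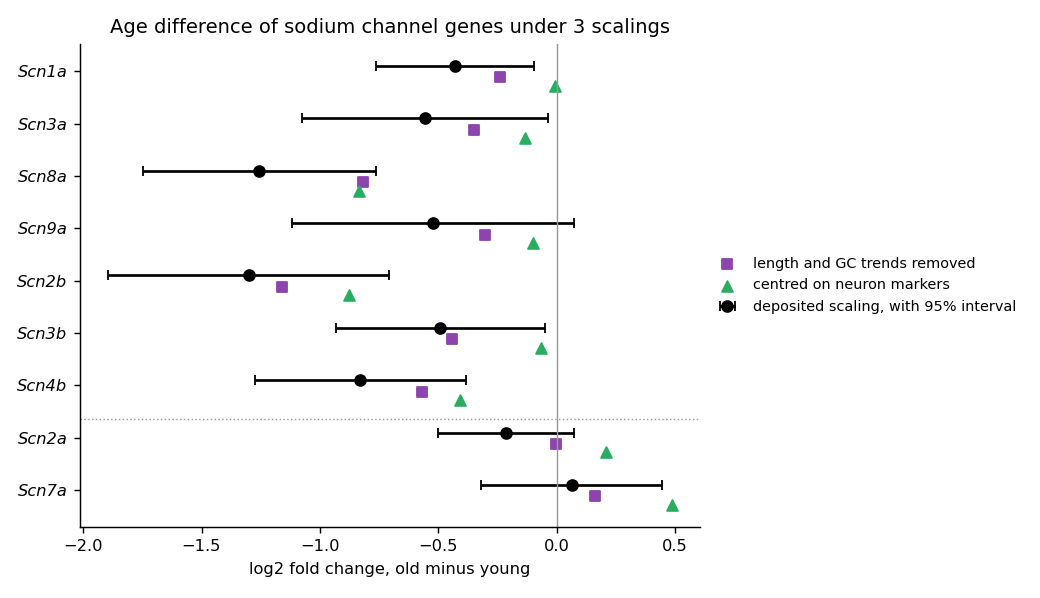
Log2 fold changes, old minus young (horizontal axis), of the 7 sodium channel genes and, below the dotted line, of 2 further family genes, on the deposited scaling with 95% intervals (black), with length and GC trends removed (squares) and centred on neuron markers (triangles). Scn8a and Scn2b lie at -0.82 or lower on all 3 scales, and the triangles of Scn1a, Scn3a, Scn9a and Scn3b lie between -0.13 and -0.01.

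Sodium channel alpha transcripts are long, from 8386 nt in Scn1a to 11436 nt in Scn8a, and the beta transcripts run from 4150 nt in Scn3b to 4982 nt in Scn4b. Across 15015 tested genes with a known transcript, length and log2 fold change had a Spearman correlation of -0.382 (across genes, which are not independent replicates). With smooth trends in length and GC content removed from each library, 12.6% of genes were called lower and the same 3 members were: Scn8a at -0.82 (adjusted p = 0.0210), Scn2b at -1.16 (adjusted p = 0.0184) and Scn4b at -0.57 (adjusted p = 0.0478). Scn1a was then at -0.24, Scn3a at -0.35, Scn9a at -0.30 and Scn3b at -0.44, none passing. On the deposited scaling Scn2b (4656 nt) was at -1.30, Scn8a, the longest of the 7, at -1.26 and Scn3b, the shortest, at -0.49. Whether length is a cause of these values was not tested.

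**Figure D4:**
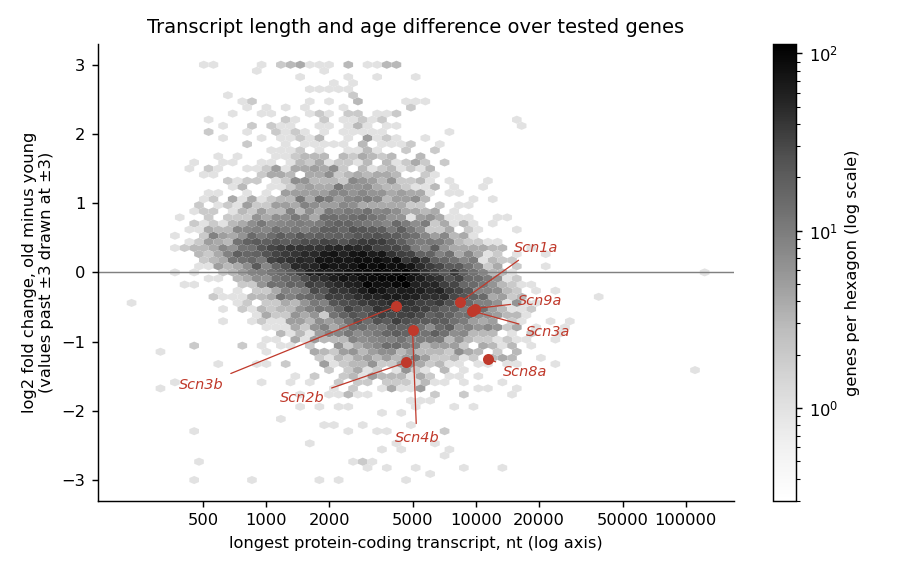
Log2 fold change, old minus young, against the length of the longest protein-coding transcript (log axis) for the 15015 tested genes with a known transcript (grey hexagons) and the 7 sodium channel genes (red). Longer transcripts lean lower (Spearman correlation -0.382), and Scn8a at -1.26 and Scn2b at -1.30 lie below most genes of their length; values past 3 in either direction are drawn at 3.

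Of the other sodium channel family genes followed, 4 were in the table, 2 were tested and none of these was called in limma, edgeR or DESeq2 or had an unadjusted p under 0.05. Scn2a, an alpha gene of unmyelinated axons and young neurons, had 897 to 1234 counts in young and 877 to 960 in old nerves (-0.21 ± 0.12, adjusted p = 0.210). Scn7a, an atypical alpha gene that senses sodium rather than voltage and is known from Schwann cells and other glia, had 789 to 957 and 784 to 1168 counts (0.06 ± 0.16, adjusted p = 0.789).

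Genes of proteins that bind, anchor or modify sodium channels were followed in 4 further lists, which with the family genes hold 37 tested genes. Of these 13 fell (35.1%, against 18.7% of all tested genes) and 3 rose (15.9% of all), and their median log2 fold change was -0.21. Without young 1 and old 2, 6 fell: 3 ankyrin or spectrin genes, 2 adhesion genes and 1 trafficking gene. In that fit 945 of all 15832 genes tested were lower. The lists differed in their counts. Of 6 ankyrin and spectrin genes 5 fell (median -0.94): Ank3, encoding the ankyrin that gathers sodium channels at the initial segment and node (-0.96 ± 0.13), Ank2 (-1.27 ± 0.19) and Ank1 (-1.34 ± 0.23), both encoding further ankyrins, Sptbn4, the spectrin of nodes and initial segments (-0.92 ± 0.20), and Sptbn1 (-0.40 ± 0.10). Ank1 had 19552 to 23804 counts in young libraries and 6444 to 12586 in old ones. Sptbn4 was at -0.13 with length and GC trends removed (adjusted p = 0.410) and Sptbn1 at 0.02 when centred on neuron markers, whereas the 3 ankyrin genes passed on both scales. Sptan1 (-0.20 ± 0.13) did not pass.

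Of 7 genes of adhesion proteins at and beside the node 5 fell (median -0.46), where 18.7% of all tested genes fell. Cntnap1, of the paranodal junction (-1.22 ± 0.20), Nfasc, which binds ankyrin at the node (-0.93 ± 0.13), and Cntn2, of the juxtaparanode (-0.86 ± 0.15), also passed with the trends removed and when centred on neuron markers. Cntnap2, the juxtaparanodal partner of Cntn2, fell by 0.46 ± 0.14 and was at -0.04 when centred. Gldn, encoding gliomedin, which Schwann cells secrete to cluster channels at the node, fell by 0.31 ± 0.07 but was at 0.11 when centred on neuron markers. Nrcam (-0.22 ± 0.07, adjusted p = 0.0511) and Cntn1 (-0.09 ± 0.08), both known to bind beta subunits or their partners, did not pass.

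Of 7 genes of proteins that bind the channel from inside the cell, 1 rose and none fell in limma, edgeR or DESeq2 (median log2 fold change 0.02), and 1 was lower at an unadjusted p under 0.05. Of all tested genes 15.9% rose and 18.7% fell in limma. Calm2, a calmodulin gene, rose by 0.29 ± 0.09, but was at -0.26 with length and GC trends removed. Calm3 (-0.29 ± 0.12), Fgf11 (-0.55 ± 0.32, 95% interval -1.31 to 0.21) and Fgf12 (-0.45 ± 0.27, 95% interval -1.09 to 0.18), the last 2 encoding fibroblast growth factor homologues that bind the alpha subunit's tail, did not pass. Fgf12 had 23489, 12413 and 13648 counts in young 1, 2 and 3, against 8966, 14848 and 11610 in old 1, 2 and 3, and young 1 stood above the rest, as in Scn2b.

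Of 15 genes of trafficking and modifying proteins 3 fell and 2 rose (median -0.01), where 18.7% of all tested genes fell and 15.9% rose. Bace1, the protease that cleaves beta subunits, fell from 5077 to 5343 in young to 2725 to 3537 in old nerves (log2 fold change -0.72 ± 0.10, adjusted p = 0.00544; -0.49 with the trends removed, adjusted p = 0.0145; -0.29 when centred on neuron markers, adjusted p = 0.0767). Csnk2a2, a catalytic subunit of the kinase that promotes ankyrin binding, fell by 0.35 ± 0.08 and was at 0.07 when centred, and Csnk2b, its regulatory subunit, rose by 0.24 ± 0.06 and was at -0.16 with the trends removed. S100a10, whose protein carries a sodium channel of sensory neurons to the membrane, rose by 0.35 ± 0.07 and was at -0.15 with the trends removed. Prrt2 (-0.46 ± 0.12, adjusted p = 0.0242) completes these counts.

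**Figure D5:**
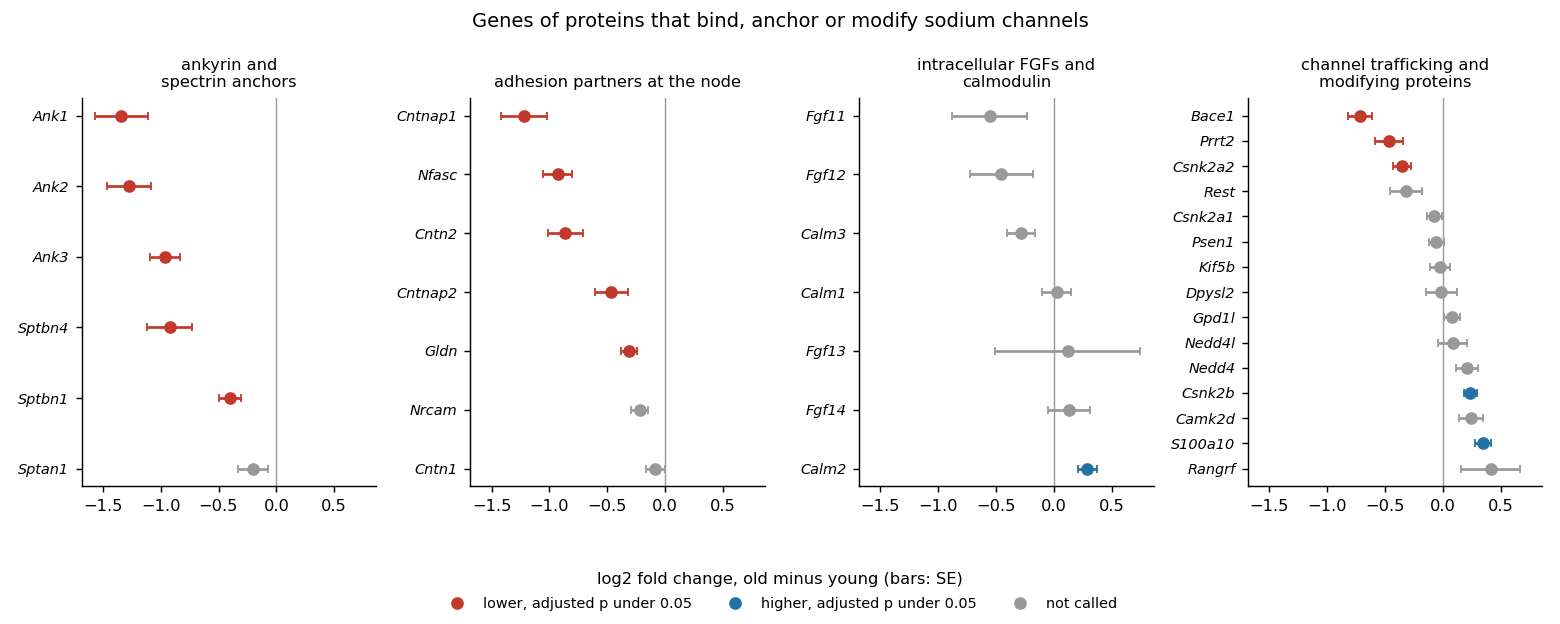
Log2 fold changes, old minus young, with SE bars, of the genes in the 4 lists of anchoring, adhesion, intracellular and modifying partners; red (lower) and blue (higher) mark adjusted p-values under 0.05 and grey the rest. The ankyrin genes lie between -1.34 and -0.96, and the trafficking list lies on both sides of 0.

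The genes most like each member over the 6 libraries were sought among 7937 genes with a mean at or above the median. With so many candidates and 6 libraries that include the age difference, high correlations (Pearson's r of log2 values) are a description. Scn8a was closest to Panx2 (0.9998) and Grk2 (0.9997), and Scn4b to Rabl6 (0.9997) and Inpp5j (0.9992). Scn2b was closest to Pik3cd (0.9957) and Amigo1 (0.9946), and Scn1a to Amer1 (0.998) and Dync1li2 (0.9977). For Scn3a they were Epm2aip1 (0.9925) and Cadm2 (0.992), for Scn3b Cyp51 (0.9769) and Rnf19a (0.9718), and for Scn9a Osbpl8 (0.9719) and Aldh5a1 (0.9644).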

How the data were processed

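RNA sequencing of 3 young and 3 old auditory nerves was analysed from the deposited table. The submitters' processing notes name mm10, TopHat2, Partek and DESeq2, with no versions or settings in the sources used here. The 6 columns of libraries hold deposited signal: read counts over 1 size factor per library (99.925% to 99.971% of values above 0 gave whole reads within 0.1). The p-values, the FDR and the fold change, a signed score, come from the authors' comparison, per the file headers. Starts count from 1 and ends are the deposited stop less 1.

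Genes kept by edgeR's filterByExpr on recovered reads (minimum count 10, minimum total 15) were tested with limma 3.58.1 (trended variances) on log2(value + 1), which understates the change of low genes. Alternatives were edgeR 4.0.16, DESeq2 1.42.0, other scalings, filters and pseudocounts, the replicate block, left-out libraries, and smooth length and GC trends removed (mgcv 1.9.3). Transcript lengths are GENCODE M21 (94.54% of genes matched by symbol), and the transcript in use may be shorter. The steps were tested on simulated data. Single values used exact two-sided permutation tests.

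The members and gene lists were chosen with earlier results of these data known, and 3 genes of the lists are not reported here. Of each partner list the up to 4 genes with the smallest p are named, and those that did not pass where they were 3 or fewer; likeness used the 2 highest correlations. Sptbn1, Cntnap2, Prrt2, Rest and the neuron markers singled out were named after their values were seen.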

Additional observations from a re-analysis of the deposited data

How the results depend on the processing

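The direction of all 7 members was the same under all alternatives run, and the count of 3 lower members was 3 or 4 under other pseudocounts, filters, scalings, tools and with trends removed. It was 1 with the replicate block and trends removed together (Scn8a), 1 without young 1 and old 2 (Scn2b), and 2 to 4 with 1 library left out, and no member was higher in any of these (0 to 0). The deviations of same-numbered libraries had correlations of r = -0.291, -0.412 and -0.050. Deviations from a mean of 3 libraries are tied to each other, so these values cannot decide whether the numbers mark a pairing. With the replicate block alone 3 members were lower. Partner genes, 13 lower and 3 higher, numbered 7 and 10 when centred on neuron markers, 8 and 1 with the replicate block, 4 and 0 with the replicate block and trends removed, and 6 and 0 without young 1 and old 2. With trends removed 9 were lower and 1 higher, and left-out libraries gave 7 (without young 2) to 15 lower and 1 (without any one young library) to 4 higher. Over all genes 2969 were lower and 2524 higher, against 1633 and 1078 with the block, 1895 and 1527 with trends removed, 457 and 368 with both, 945 and 831 without young 1 and old 2, 2338 and 3439 with upper-quartile scaling, and 554 and 6145 when centred on neuron markers; left-out libraries gave 1430 to 3360 lower and 1159 to 2757 higher. The cause of these shifts was not tested. Shares by the length of the RefSeq protein were not run; coding length from GENCODE and sums with Scn2a and Scn7a were added after seeing the data, and no exact test of 3 against 3 can pass. Scn3a, Scn9a and Scn3b, with the lowest counts of the 7, had SEs of 0.22, 0.25 and 0.19, against 0.21, 0.25 and 0.19 in Scn8a, Scn2b and Scn4b.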

Other observations

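Of the family genes, Scn4a, the alpha gene of skeletal muscle, and Scn11a, that of nociceptors, were in the table below the filter on low counts, with at most 5.64 and 4.74 normalised counts in any library. Gm13629, which overlaps the span of Scn9a on the opposite strand, had 1329, 1028 and 1070 counts in the 3 young libraries against 738, 867 and 910 in the old, so that, like Scn9a, it was highest in young 1, while every old library was below every young one. Tnnt2, a troponin gene in the heart muscle list, rose from 49.0 ± 35.8 to 382 ± 243 (SD, n = 3 each; limma adjusted p = 0.00932), and the other 2 tested genes of that list, Myh6 and Tnni3, did not pass.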
